A study of Mus musculus with 4 samples.

Results

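Neuronal intermediate filaments are built from the neurofilament light and medium subunits (Nefl and Nefm), α-internexin (Ina) and peripherin (Prph). Their RNA was measured in cardiac neural crest cells (NCCs) of E10.5 mouse embryos with integrin-linked kinase (ILK) deleted in the neural crest. The members are all probe sets that the authors' table of differing probe sets names with 1 of these 4 genes alone. There are 6 such probe sets, 3 of them for Ina and 1 each for Nefl, Nefm and Prph, among 603 single-named probe sets of 542 genes in that table and 45037 probe sets on the arrays. NKO embryos carried Wnt1-Cre and 2 floxed ILK alleles (Wnt1-Cre; ILK f/f). Controls, which the labels call wildtype, were Wnt1-Cre; ILK f/+ littermates according to the paper, so that Cre was present in both genotypes. Wnt1-Cre acts in the dorsal neural tube and the neural crest that leaves it, and both genotypes carried a lacZ reporter of Cre activity. Outflow tracts (OFTs) of embryos of 1 genotype were combined and digested to single cells, and β-galactosidase-positive cells were taken by FACS with the fluorogenic substrate FDG. The yields of repeated sorts were combined for RNA, and 2 samples per genotype, labeled as biological replicates, were each hybridized to 1 Affymetrix mouse genome array.

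Intermediate filament proteins share a coiled-coil rod domain and assemble without nucleotides into flexible cables. In neurons Nefl forms the core of the neurofilament, Nefm and α-internexin copolymerize with it, and peripherin joins them mainly in neurons of the peripheral nervous system and in some motor neurons. Neurofilaments fill growing axons and set their caliber. Many but not all neurons of the sensory ganglia, and those of the sympathetic and parasympathetic ganglia, are neural crest derivatives. Sections of the OFT were stained with a neurofilament antibody in the study to see nerves and ganglia.

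All 4 genes had a higher signal in NKO mutant NCCs than in control NCCs. Both NKO arrays lay above both control arrays for each of the 6 probe sets, an order that 24.2% of all 45037 probe sets had. At least 1.5-fold higher were 5 of the 6, against 0.286% of all probe sets, a background count of 129 that lay between 226 and 387 with any 1 array left out, and 0.158% were at least 1.5-fold lower. The authors had listed all 6 as different in a test of the same arrays at a Bonferroni threshold of 0.05, so these counts describe how the members were chosen and no test is given for them. With limma over all 45037 probe sets, 0 had an adjusted p under 0.05 (Benjamini-Hochberg), 3972 had an unadjusted p under 0.05, and 520 (1.15%) passed when limma was moderated robustly with an intensity trend. Fold changes below are differences of mean log2(intensity + 16), given with limma's standard error (SE) from 2 arrays per genotype, and the offset narrows those of dim probe sets.

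**Figure D1:**
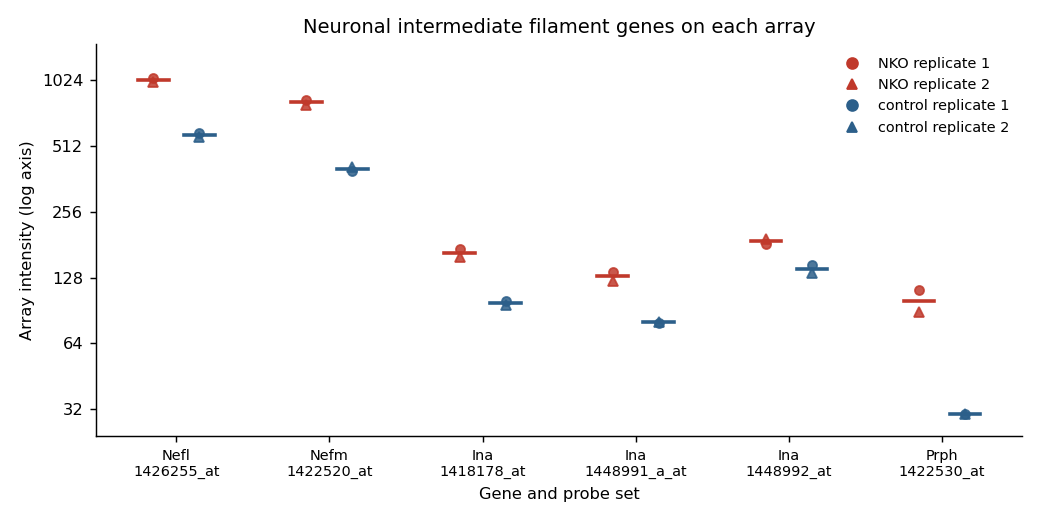
Array intensity (log axis) of the 6 probe sets of Nefl, Nefm, Ina and Prph in NKO samples (red, left in each pair) and control samples (blue, right), with circles for replicate 1, triangles for replicate 2 and a bar at the mean of each genotype. In every probe set both NKO values lie above both control values, with Nefl at a mean of 1024 in the NKO samples and 573 in the controls.

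Nefl, the light subunit, needed for neurofilament assembly, had intensities of 1047 and 1001 in the NKO samples, against 584.9 and 560.3 in the control samples. Its log2 fold change was 0.82 ± 0.064 (SE), and the ratio of the mean intensities was 1.79. The replicates of each genotype were close, since the largest difference within a genotype was 0.064 on the log2 scale and the smallest difference between an NKO and a control array was 0.76.

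Nefm, the medium subunit, which carries a long phosphorylated tail, had intensities of 834.5 and 791.0 in the NKO samples, against 393.3 and 409.7 in the control samples. The log2 fold change was 0.99 ± 0.065 (SE), with a ratio of mean intensities of 2.02. Here too the genotypes stood well apart, with 0.92 between the nearest NKO and control arrays and at most 0.076 within a genotype. Nefl and Nefm are neighboring protein-coding genes on chromosome 14 in the RefSeq annotation of GRCm38.p6. Across the 4 possible pairs of an NKO with a control array, the fold change ran between 1.69 and 1.84 for Nefl and between 1.90 and 2.08 for Nefm on the offset scale, 2 ranges that did not meet. A long noncoding RNA gene overlaps Nefm in that annotation, and signal of that gene in the Nefm probe set was not tested.

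Prph had the largest fold change of the 4 genes on the log2(intensity + 16) scale, an order that turned with an offset of 64, where it was at 0.80 and Nefm at 0.91. Its intensities were 111.9 and 88.9 in the NKO samples, against 30.4 and 30.4 in the control samples. The controls lay below the median of their arrays, 77.2 and 75.9, and whether the probe set was above background there is not known, since no detection calls were used here. The log2 fold change was 1.32 ± 0.11 (SE), a rank of 5 from the top among all 45037 probe sets, and the ratio of the mean intensities was 3.30. The NKO samples differed from each other more for Prph than for any other member, by 0.29 on the log2 scale, while the nearest NKO and control arrays were 1.18 apart. The fold change was 1.18 without the first NKO sample and 1.46 without the second.

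Ina, which encodes α-internexin, an early filament protein of differentiating neurons, was read by 3 probe sets that differed in the size of the change. Probe set 1418178_at had intensities of 173.5 and 158.4 in the NKO samples, against 100.1 and 95.5 in the control samples. Its log2 fold change was 0.68 ± 0.073 (SE). Probe set 1448991_a_at, whose suffix marks probes shared by several transcripts of a gene, had intensities of 136.4 and 123.5 in the NKO samples, against 79.6 and 80.3 in the control samples. The log2 fold change was 0.60 ± 0.072 (SE), just past the 1.5-fold cutoff, which is 0.58 on the log2 scale.

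The remaining Ina probe set, 1448992_at, had intensities of 182.7 and 192.0 in the NKO samples, against 145.5 and 133.7 in the control samples. Its log2 fold change was 0.39 ± 0.072 (SE), the smallest of the 6 and the only one under 1.5-fold. The fold over the 4 pairs of arrays ran between 1.23 and 1.39 for this probe set, and between 1.502 and 1.70 for 1418178_at, so that the 3 probe sets of 1 gene did not give 1 value. The authors' table describes the Ina probe sets with a second, similar transcript record beside Ina, and the gene overlaps its neighbor Nt5c2 in the RefSeq annotation. Which transcripts each probe set reads was not analysed here.

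Replicate spread was small beside these differences. The within-genotype SD on the log2 scale lay between 0.044 (Nefl) and 0.143 (Prph), with a median of 0.064 over the 6 probe sets. That median was 0.083 over all probe sets and 0.061 over the 603 single-named probe sets of the authors' table. The members were thus no tighter than other probe sets selected in the same way. The first NKO sample was the higher of the 2 in 5 of the 6 probe sets, the exception being 1448992_at of Ina. In order of the fold change on the log2(intensity + 16) scale, Prph came first and was followed by Nefm, Nefl and the Ina probe sets, at ranks 5, 10, 22, 63, 112 and 691 of 45037. The median of the 6 was 0.75, beside 0.013 over all probe sets and 0.25 over the 603 single-named probe sets of the authors' table, of which 368 were higher and 235 lower.

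The 250 bases before the annotated start of Ina and of Prph are shown because both genes were higher in the NKO samples and the reference table used here holds both windows. Capitals mark the matches to 6 motifs, which were searched on both strands. These were TATAAA, the motif of a core promoter where transcription starts, and GGGCGG, the box read by Sp1-type factors. Others were CAGCTG, an E-box of the kind read by proneural factors such as Neurod1, and its variant CAGATG. The search also held CCAAT, read by the factor NF-Y, and CAGCACC, which is part of RE1, the element bound by the neuronal gene repressor REST. The sequences are from RefSeq, build GRCm38.p6, plus strand, chr19:47014431-47014680 for Ina and chr15:99054924-99055173 for Prph.
Ina: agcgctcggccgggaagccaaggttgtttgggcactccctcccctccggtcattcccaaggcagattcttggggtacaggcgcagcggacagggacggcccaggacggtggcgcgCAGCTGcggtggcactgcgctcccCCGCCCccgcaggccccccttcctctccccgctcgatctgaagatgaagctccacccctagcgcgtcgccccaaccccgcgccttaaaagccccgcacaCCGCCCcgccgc
Prph: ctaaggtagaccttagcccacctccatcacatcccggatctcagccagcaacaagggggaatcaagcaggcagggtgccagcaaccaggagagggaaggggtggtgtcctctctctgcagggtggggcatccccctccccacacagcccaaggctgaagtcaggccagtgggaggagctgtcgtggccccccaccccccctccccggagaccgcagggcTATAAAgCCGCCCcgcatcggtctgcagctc

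The motifs differed between the genes, apart from GGGCGG. The Prph window held TATAAA 31 to 26 bases before the start and GGGCGG on the minus strand 24 to 19 bases before it. The Ina window held GGGCGG 2 times on the minus strand, 111 to 106 and 12 to 7 bases before the start, and the E-box CAGCTG 135 to 130 bases before it. Of 32851 windows of the same length, 32.7% held GGGCGG, 12.4% held TATAAA and 13% held CAGCTG. The letters of CAGATG (in 14.4% of windows), CCAAT (33.8%) and CAGCACC (5.73%) were in neither window. Both windows were rich in G and C, at 70.8% for Ina and 65.2% for Prph, against a median of 52.4%. A match to such short letters is a description of the sequence and does not show that a factor binds there.

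None of 18 other intermediate filament genes was named alone in the authors' table, among them the heavy subunit Nefh, the progenitor filament genes Nes and Vim, Gfap, Des, the simple keratins and the lamins. Probe sets outside the authors' table carry no name here, so levels of these genes, and of further probe sets of Nefl, Nefm, Ina or Prph, were not analysed here.

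Of 40 genes of the neuronal cytoskeleton and axonal transport, 6 were in the authors' table, and the other 34 have no value here. The table holds 747 (1.66%) of the 45037 probe sets, chosen by the authors as different on these arrays. For all 6 genes both NKO arrays exceeded both control arrays, against 24.2% of all probe sets, and 3 were at least 1.5-fold higher, against 0.286%. Their median log2 fold change was 0.58, and since the table selected them on the same contrast these counts are a description. Sncg, the γ-synuclein of peripheral neurons, had intensities of 354.6 and 337.0 in the NKO samples, against 111.4 and 116.2 in the control samples, a log2 fold change of 1.48 ± 0.064 (SE). Stmn3, a neuronal stathmin that binds tubulin, followed at 1.36 ± 0.064 (SE) in its brighter probe set and 1.21 ± 0.14 (SE) in the other one. Stmn2, a stathmin of growth cones, had a log2 fold change of 0.60 ± 0.072 (SE) in its brighter probe set and 1.01 in the other one, and Tubb3, the neuron-specific β-tubulin, had 0.56 ± 0.070 (SE). The fold changes of the 6 filament probe sets, 0.39 to 1.32, lay inside the range of these 6 genes, 0.26 to 1.48.

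Of 37 neurogenic transcription and neuronal RNA-binding factors, 9 were in the authors' table and 28 have no value here. All 9 had both NKO arrays above both control arrays (24.2% of all probe sets) and 5 were at least 1.5-fold higher in the NKO samples (0.286% of all probe sets), with a median log2 fold change of 0.62. Pou4f1, a POU factor of sensory neurons, had intensities of 82.3 and 79.5 in the NKO samples, against 33.7 and 34.0 in the control samples, a log2 fold change of 0.96 ± 0.058 (SE). Neurod1, a proneural basic helix-loop-helix factor, was at 0.77 ± 0.059 (SE) in its brighter probe set and 0.89 in the other one. Elavl4, a neuronal RNA-binding protein, was at 0.68 ± 0.068 (SE) in its brightest probe set. Its other probe sets were at 0.63 and 0.54, the latter under the 1.5-fold cutoff. St18, a zinc finger factor, was at 0.66 ± 0.074 (SE).

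Of 48 autonomic and sensory neuron genes, 3 were in the table and all 3 were higher, as 54.1% of all probe sets were by any amount, while 45 have no value here. Scn9a, the sodium channel of sensory and sympathetic neurons, had intensities of 58.1 and 52.9 in the NKO samples, against 12.8 and 14.4 in the control samples, a log2 fold change of 1.27 ± 0.072 (SE) on a dim probe set. The neuropeptide gene Sst was at 0.65 ± 0.11 (SE) and L1cam, an adhesion molecule of axons, at 0.36 ± 0.062 (SE). Of 19 glial genes only Fabp7, a fatty acid binding protein gene, was listed, at 1.05 ± 0.066 (SE). As with the filament genes, the authors had chosen all of these on the same arrays, and the limma counts given for all probe sets apply to them.

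**Figure D2:**
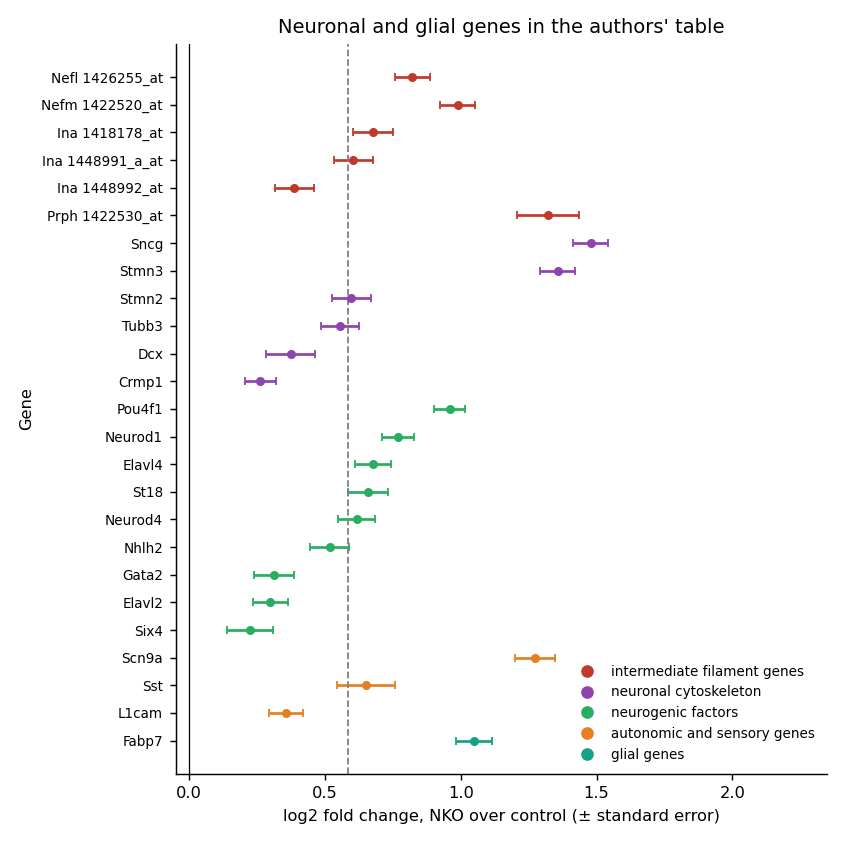
log2 fold change (horizontal axis, NKO over control, points with standard error bars) of the 6 intermediate filament probe sets (red) and of the listed genes of the neuronal cytoskeleton (purple), neurogenic factors (green), autonomic and sensory neurons (orange) and glia (teal), with a solid line at no change and a dashed line at 1.5-fold. All points lie right of the solid line, between 0.22 (Six4) and 1.48 (Sncg).

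The profile of the filament genes over the 4 arrays was compared with that of every other single-named probe set. Likeness was the Euclidean distance between log2(intensity + 16) values centered on each probe set's mean, taken to the mean profile of the 4 genes, so that both the size of the genotype difference and the order of the replicates count. Nefm and Nefl lay closest to that mean profile, at 0.090 and 0.11, while Ina at 0.37 and Prph at 0.42 lay on either side of it with the smallest and the largest difference. The 5 closest probe sets of other genes belonged to Neurod1 (distance 0.044), Pou4f1 (0.070), the platelet chemokine gene Pf4 (0.083), the myeloid peroxidase gene Mpo (0.11) and the platelet chemokine gene Ppbp (0.11). Neuronal genes and genes of blood cells were thus both among the closest, over 4 arrays of 2 genotypes. The authors had listed all compared probe sets as different between these genotypes on the same arrays. The 5 closest had log2 fold changes of 0.86 to 0.96, so the likeness largely restates the size of that difference. It does not show that these genes are regulated together.

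**Figure D3:**
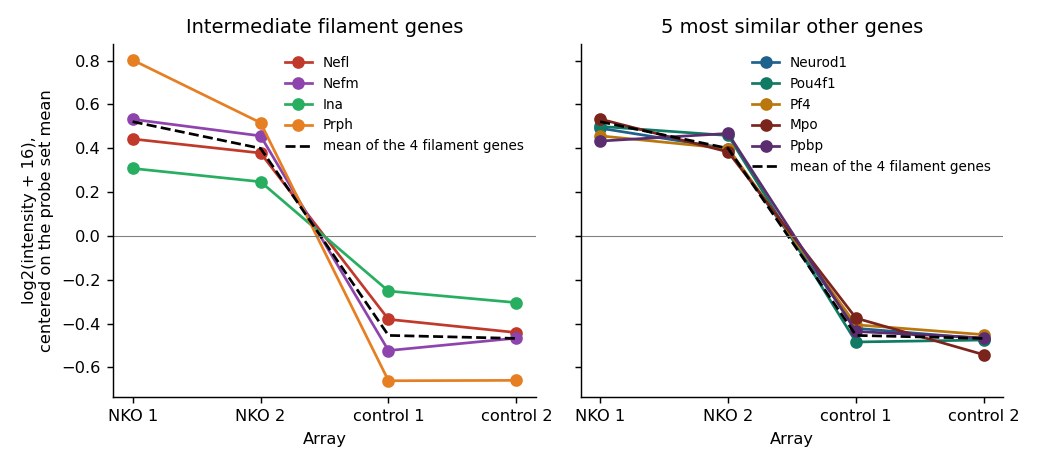
log2(intensity + 16) centered on the mean of each probe set (vertical axis) on the 4 arrays (horizontal axis), for Nefl, Nefm, Ina (mean of its 3 probe sets) and Prph on the left and for the 5 most similar other genes on the right, with the mean profile of the 4 filament genes dashed in both. Prph spans the widest range and Ina the narrowest, and the 5 other genes, at distances of 0.044 to 0.11, lie close to the dashed line.

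Listed markers of several cell types moved with the filament genes in these sorted cells. The listed neuron markers are genes already counted above among the cytoskeletal genes and the neurogenic factors, so they are not a separate result. As background, 54.1% of all probe sets were higher by any amount, as were 61% of the single-named probe sets in the authors' table. That table was selected on the same contrast, so the marker counts are a description. The sums weigh the brightest genes most, such as Pf4 among the platelet markers. Of 12 neuron markers 9 were listed and all 9 were higher. Their summed intensities were 2657 and 2503 in the NKO samples, against 1442 and 1442 in the control samples. Of 8 platelet markers 7 were listed and all were higher, with sums of 3602 and 3521 in the NKO samples, against 2018 and 1991 in the control samples. The 4 listed of 6 markers of macrophages and other myeloid cells, Mpo among them, were higher too. Their sums were 669.9 and 627.0 in the NKO samples, against 434.8 and 423.9 in the control samples. The single listed red cell marker of 4, Alas2, had 550.5 and 515.9 in the NKO samples, against 445.8 and 456.1 in the control samples, and the 2 listed endothelial markers of 5 summed to 574.0 and 535.7, against 451.5 and 438.0. Listed heart and skeletal muscle markers had the other direction. The 4 listed of 8 heart muscle markers summed to 5731 and 5848 in the NKO samples, against 7230 and 7143 in the control samples, and the 4 listed of 7 skeletal muscle markers to 773.3 and 772.9, against 1100 and 1128. Smooth muscle was not among the marker lists. Tagln, an actin-binding protein gene of smooth muscle, was in the table with intensities of 1978 and 1919 in the NKO samples, against 1412 and 1448 in the control samples. It is a single gene named after its values were seen, and does not stand for smooth muscle as a whole. The paper reported reduced α-smooth muscle actin staining in NCC-derived parts of the NKO OFT at a later stage. No listed marker was at 0. The part of these cell types in the filament signal was not tested, and more cells of a type cannot be told apart from more RNA per cell in such bulk samples.

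The label of the sorted cells was not checked with markers. Neural crest genes have a value here only where the authors' table lists them as different between the genotypes. Of 10 neural crest and mesenchyme markers, Prrx1, Msx2 and Pax3 were listed, and the other 7 have no value here. The 3 listed were all higher in the NKO samples, with log2 fold changes of 0.24, 0.28 and 0.44. Of all single-named probe sets in that table, 61% were higher. Ilk, the deleted gene, had intensities of 467.7 and 386.7 in the NKO samples, against 809.5 and 800.7 in the control samples. The log2 fold change was −0.90 ± 0.11 (SE), in the direction of the genotype labels. The ratio of the mean intensities was 0.53, and the source of the signal that remained in the NKO samples was not tested. Correlations between arrays on the log2 scale lay between 0.9948 and 0.9968 over all probe sets, and NKO sample 2 correlated at 0.9959 and 0.9954 with the controls but at 0.9948 with NKO sample 1.

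The 10 alternative treatments of the data bear on the size of the filament differences rather than on their direction, since both NKO arrays lay above both control arrays and changing the offset, leaving out an array or adding the replicate block could not turn a sign. Direction could have turned only with centering or quantile normalization, and did not. The array medians lay between 75.9 and 79.3, so these steps moved the values little and were a weak check of direction. The smallest log2 fold change, 0.39, was 0.37 after centering and 0.36 after quantile normalization. Prph depended most on the offset, since its log2 fold change was 1.68 with an offset of 1 and 0.80 with an offset of 64. Nefl and Nefm, with intensities well above the array median, lay between 0.77 and 1.03 in every treatment. The count of filament probe sets at 1.5-fold was 5 as reported, 4 after centering the arrays or quantile normalization and 3 with an offset of 64, where all 3 Ina probe sets lay under the cutoff.

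**Figure D4:**
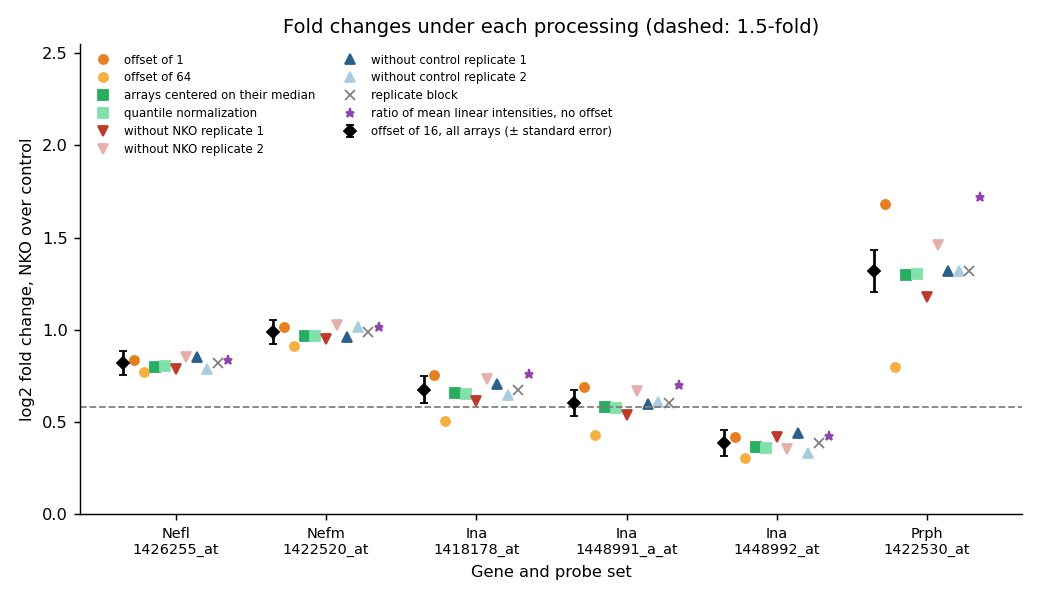
log2 fold change (vertical axis, NKO over control) of the 6 probe sets as reported (black diamonds with standard error bars) and under the 10 alternative treatments (colored symbols), with a dashed line at 1.5-fold. All values are above 0, those of Prph range between 0.80 and 1.72, and those of the Ina probe set 1448992_at stay under the dashed line.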

How the data were processed

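RNA of FACS-sorted NCCs was measured on 4 arrays, 2 NKO and 2 control. The authors deposited normalized linear intensity values for 45101 rows, made with Affymetrix Expression Console according to the submitters' processing notes; how it corrected background and summarized probes is not stated in these sources. As a check of the scale, control means lay within 0.0447% of the authors' own control signal. The authors' table of 766 probe sets, made with VAMPIRE, was used for gene names, for which probe sets it lists and, in that check, for its control signal; its fold changes and p-values were not used. It also holds 19 Affymetrix controls, and 48 of its probe sets name several genes and 96 none. The 64 control rows of the value table were left out. log2(intensity + 16) was fitted with lmFit and eBayes of limma 3.58.1 (R 4.3.3) with genotype as the only term, a step tested on simulated data. A gene with several probe sets in a list is given by the brightest one. Named are the members, Ilk, at most 4 genes of each list by the size of their change, marker genes and the 5 closest profiles; Six4 and Tagln were named after their values were seen, and 1 gene of the lists is not reported here. The members and lists were chosen with earlier results of these data known. Replicates are labeled biological, but nothing says which embryos or sorts each holds, so the spread may be partly technical. The number of arrays limits the precision. Other steps used Python 3.11.15 with pandas 2.3.3, numpy 2.4.6 and matplotlib 3.10.9.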

Additional observations from a re-analysis of the deposited data

How the results depend on the processing

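The 1.5-fold counts over all probe sets, 129 higher and 71 lower, depended on the offset, being 1778 and 1557 with an offset of 1 and 23 and 13 with an offset of 64. They were 38 and 11 among probe sets brighter than the median, which leave out Prph. Without 1 array they were 226 and 218 (first NKO sample), 387 and 259 (second NKO sample), 255 and 145 (first control) and 243 and 152 (second control). limma called 0 probe sets, also without any 1 array (0 to 0), but 60 with an offset of 64, 51 among the brighter probe sets and 520 under trend and robust moderation. The methods' t-test passed 3973 at its threshold and 0 after Benjamini-Hochberg adjustment. The cause of these differences was not tested.

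With an offset of 1 the log2 fold changes were 0.76 and 0.69 for the Ina probe sets 1418178_at and 1448991_a_at and 1.68 for Prph, and from the ratio of the mean linear intensities they were 0.76, 0.70 and 1.72. With an offset of 64 they were 0.77 for Nefl, 0.91 for Nefm, 0.51, 0.43 and 0.30 for the Ina probe sets 1418178_at, 1448991_a_at and 1448992_at, and 0.80 for Prph, with 3 filament probe sets at 1.5-fold. A larger offset narrows fold changes by construction. Without 1 array the count was 4 to 5, and the values lay between 0.79 and 0.85 (Nefl), 0.95 and 1.03 (Nefm), 0.62 and 0.74, 0.54 and 0.67, and 0.33 and 0.44 (Ina, in the order above) and 1.18 and 1.46 (Prph).

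The labels number the arrays 1 and 2 in both genotypes, but the deviations of same-numbered arrays did not go together (r = −0.033 over 45037 probe sets, 2 pairs), so the numbers were not taken as pairs. With the replicate block limma called 0 probe sets, and the log2 fold changes were the same, such as 0.99 for Nefm.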
